A study of Mus musculus with 6 samples.

Results

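The T cell receptor loci are the 4 gene clusters whose V, D and J segments are joined in developing T cells: Tra (alpha) and Trd (delta), which lie inside one another on chromosome 14, Trb (beta) on chromosome 6 and Trg (gamma) on chromosome 13. Their chromatin was described here in cells of the other lymphocyte lineage, from peak lists of 6 ATAC-seq libraries, an assay in which a transposase inserts sequencing adapters into open chromatin. The libraries came from 3 pro-B cell lines, early B lineage cells of the mouse bone marrow, 2 libraries a line. CBE_1 and CBE_2 have the genotype IGCR1-/-, a mutation of a CTCF-binding control region that sits between the V and D segments of the immunoglobulin heavy chain (IgH) locus, and the WT line has wild-type IgH alleles. All 3 lines are of strain 129SV, lack RAG2, were grown in RPMI medium with serum and were left untreated. The labels do not say whether the 2 libraries of a line are separate cultures, so their spread may be technical, and with 1 WT line the mutation and the line cannot be told apart.

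Peaks were taken as members where they overlapped 53 to 54.9 Mb of chromosome 14 (alpha and delta), 40.8 to 41.52 Mb of chromosome 6 (beta) or 19.25 to 19.46 Mb of chromosome 13 (gamma), all positions being of the mouse build mm9. Peaks of the 6 lists that shared at least 1 bp were merged into a region, which counts as present in each library that gave it a peak. The windows held 209 of 149724 regions: 90 in alpha and delta, 65 in beta and 54 in gamma. By list, they held 106 and 138 of the 72318 and 80242 peaks of CBE_1, 139 and 150 of the 94665 and 97522 peaks of CBE_2, and 174 and 167 of the 112241 and 106056 peaks of WT. The reads were not analysed here and depth is unknown, so a longer list may come from a deeper library. Marker genes of pro-B or T cells were not checked in these lists, because no annotation of mm9 was used here.

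A T cell carries either an alpha and beta chain receptor or a gamma and delta chain receptor. Each chain is encoded by a V segment, in beta and delta also a D segment, and a J segment, which the RAG1 and RAG2 recombinase joins in the thymus, and by a constant (C) gene. Joining needs open chromatin at the segments, and enhancers near the C genes are known to provide it in T cell precursors. B cell precursors join immunoglobulin segments with the same recombinase and normally do not complete T cell receptor genes. Lines without RAG2 cannot use this recombinase.

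In the RefSeq gene table of build GRCm38.p6, used here for names and order only, the alpha and delta locus runs over 202 segments and constant genes, of which 136 are V, 2 are D, 62 are J and 2 are C. It ends in Trac, the alpha constant gene, and is followed by Dad1, a subunit of the oligosaccharyltransferase that every cell uses for protein glycosylation, and by Abhd4, a lipid hydrolase. Trb holds 35 V, 2 D, 14 J and 2 C genes, and within it lie genes of trypsinogens, digestive proteases of the pancreas, such as Try4, Prss1 and Prss2. Trg holds 7 V, 4 J and 4 C genes and is followed by Stard3nl, a membrane protein of late endosomes. No protein-coding gene of another kind lies within Trg in that table. The mm9 subwindows used below for V, D, J and C segments were set from general knowledge and are approximate.

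The sequence of the regions themselves is not shown, since no mm9 genome was used. To show what kind of promoters stand beside the receptor segments, the 200 bases before the start of 3 genes follow, from RefSeq GRCm38.p6, on the strand of the gene. No peak was placed on them. Capitals mark CCAAT and GGGCGG on either strand in the first, where the first match is a pair of overlapping CCAAT matches on opposite strands, and TATAAA in the others.
Abhd4: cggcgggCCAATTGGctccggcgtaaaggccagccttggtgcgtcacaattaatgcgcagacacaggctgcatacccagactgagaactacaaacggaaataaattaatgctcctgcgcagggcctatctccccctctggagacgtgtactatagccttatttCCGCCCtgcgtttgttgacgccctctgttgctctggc
Try4: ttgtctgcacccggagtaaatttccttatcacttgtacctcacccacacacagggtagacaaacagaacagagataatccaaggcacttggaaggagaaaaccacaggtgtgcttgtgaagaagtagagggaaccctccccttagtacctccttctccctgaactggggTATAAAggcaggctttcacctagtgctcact
Prss2: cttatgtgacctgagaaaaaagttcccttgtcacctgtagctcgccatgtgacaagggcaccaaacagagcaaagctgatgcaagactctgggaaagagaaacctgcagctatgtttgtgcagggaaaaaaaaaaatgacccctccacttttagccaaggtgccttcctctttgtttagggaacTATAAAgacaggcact
The Abhd4 stretch shares 199 of its bases with the stretch before the start of Dad1, which is read the other way. It holds 12 CpG, and 29.4% of the 32851 promoters in the table hold at least as many, while the trypsinogen stretches hold 1 CpG each, against a median of 5. Over all promoters, 29.3% held CCAAT, 31.0% GGGCGG and 9.96% TATAAA on either strand in the same 200 bases. The stretch between Dad1 and Abhd4 thus has more CpG than the median promoter, and those of the trypsinogens fewer.

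To set the loci against the lists they came from, peaks per Mb in each window were divided by peaks per Mb in the rest of the same chromosome. With the full lists, the beta window was relatively denser in every IGCR1-mutated library than in either WT library. Gamma was relatively less dense in the CBE_2 libraries than in the other 4. The ratios of alpha and delta overlapped between the mutated and WT libraries. In beta the ratio was 2.04 and 2.36 in CBE_1, 1.87 and 2.15 in CBE_2, and 1.62 and 1.66 in WT. The mean was 2.10 ± 0.207 (SD, n = 4) in the mutated libraries and 1.64 ± 0.0248 (SD, n = 2) in WT, a difference of 0.466 (two-sided exact permutation test over libraries, p = 0.133, the smallest p that 4 against 2 libraries allow). The number of beta peaks was itself 37 and 49 in CBE_1, 50 and 59 in CBE_2, and 48 and 46 in WT, so the counts of CBE_1 lie on both sides of those of WT and both counts of CBE_2 lie above them. Elsewhere on chromosome 6 the density was 25.2 and 28.8 peaks per Mb in CBE_1, 37.2 and 38.1 in CBE_2, and 41.1 and 38.6 in WT. The difference in beta depends on the setting. It was 0.275 with the better 50% of each list, where not every mutated library was above both WT libraries (exact permutation test, two-sided, p = 0.4).

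In gamma the ratio was 5.63 and 6.06 in CBE_1, 3.82 and 3.85 in CBE_2, and 5.79 and 5.98 in WT. By this ratio CBE_2 lay apart from the other lines. In number of peaks both mutated lines were below WT, with 28 and 35 in CBE_1, 26 and 27 in CBE_2, and 49 and 48 in WT. The 4 mutated libraries together differed from WT by -1.05 (exact permutation test, two-sided, p = 0.4), with CBE_1 on both sides of the WT values. The place of CBE_1 depends on the setting. Against 1 Mb flanks the ratio was 6.84 and 7.09 in CBE_1, 6.19 and 6.43 in CBE_2, and 7.91 and 8.02 in WT. The difference was -2.07 with the better 50% of each list and -1.755 with lists of the same length. In both, every mutated library was below both WT libraries (exact permutation test, two-sided, p = 0.133 each). In alpha and delta the ratio was 1.07 and 1.21 in CBE_1, 0.990 and 0.968 in CBE_2, and 1.09 and 1.12 in WT, a difference of -0.0457 between the mutated and WT libraries (exact permutation test, two-sided, p = 0.533). That difference depends on the setting: it lay between -0.0967 and -0.0152 with 1 library left out at a time, farthest from 0 without CBE_1 replicate 2 and nearest to it without CBE_2 replicate 2. It was -0.214 with lists of the same length and -0.14 with the better 50% of each list, and in both of these every mutated library was below both WT libraries (exact permutation test, two-sided, p = 0.133 each). The 1 Mb flanks of alpha and delta were denser than the window in every library. Against them its ratio was 0.436 and 0.611 in CBE_1, 0.514 and 0.518 in CBE_2, and 0.600 and 0.587 in WT. Each mutated line alone can be tested against WT only with 2 libraries a side, where the smallest exact p is 0.333.

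The immunoglobulin loci, which B lineage cells join, give a scale for these ratios. In the IgH window the mean ratio was 4.48 in CBE_1, 3.03 in CBE_2 and 2.41 in WT, and in the kappa light chain window (Igk) the means were 2.37 for CBE_1, 1.66 for CBE_2 and 1.36 for WT. Gamma was thus denser relative to its chromosome than IgH in all 3 lines, and alpha and delta was below Igk in all 3. Gamma is a small window of 210 kb, while IgH spans 2910 kb, and the ratio depends on how much segment-free sequence a window takes in.

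**Figure D1:**
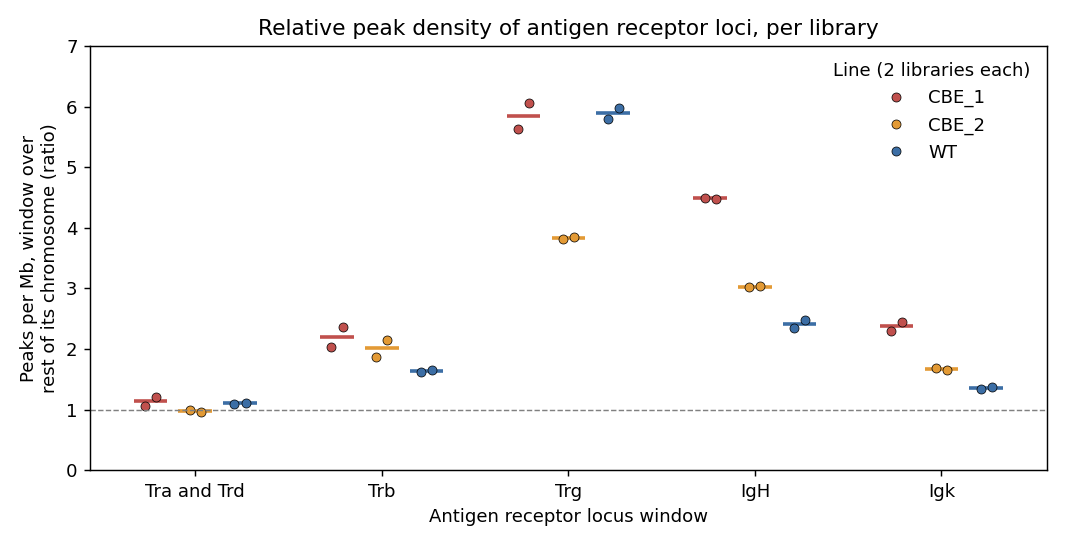
Peaks per Mb in each antigen receptor window over peaks per Mb in the rest of its chromosome (vertical axis, ratio), by library (points) with the line mean (bars), for CBE_1, CBE_2 and WT. The dashed line marks a ratio of 1. Gamma lies between 3.82 and 6.06, above the beta window, and the alpha and delta window lies near 1.

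By presence, the receptor regions were shared between lines more often than regions of the series as a whole, and WT-only regions gathered in gamma and in the delta and J alpha part of chromosome 14. A peak was found in all 6 libraries in 86 of the 209 regions (41.1%), against 31.9% of all regions. The immunoglobulin windows had higher shares, 45.1% in IgH and 52.6% in Igk. WT-only regions, with a peak in each WT library and no mutated one, numbered 28 (13.4%), against 8.68% of all regions. Mutated-only regions, with a peak in all 4 mutated libraries and in neither WT library, numbered 3, or 1.44%, against 1.52%. In 6 regions (2.87%) a peak was present in CBE_2 alone, in both its libraries, against 3.14% of all regions, and 0 regions were so confined to CBE_1, against 0.667%. Both CBE_1 libraries lacked a peak that the other 4 had in 6 regions (2.87%), against 5.05%, and both CBE_2 libraries did so in 1 region, against 0.653%. The remaining regions were present in 1 library (30 regions, 14.4%, against 27.9% of all regions) or in other combinations (49 regions, 23.4%, against 20.4%). The mutated-only, CBE_2-only, CBE_1-only and CBE_2-absent counts are near their shares in the series. WT lists are longer, so a WT-only region can also be one that falls under the threshold of a shorter list, and counts from lists of the same length are given below.

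Within alpha and delta the pattern changed along the locus, as the plot of peaks at its D, J and C end shows. The V segments, from 53 to 54.69 Mb, held 57 of the 90 regions, with 26 shared by all 6 libraries and 1 WT-only. Next, in the D, J and C segments of delta, up to 54.78 Mb, 5 of 13 regions were WT-only, and in the J alpha segments, up to 54.838 Mb, all 4 regions were. In the remaining part, which holds the alpha constant gene, its enhancer and the start of Dad1, 0 of 16 regions were WT-only and 8 were in all 6 libraries. WT-only regions made up 7.58% of the rest of chromosome 14.

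The WT-only regions of alpha and delta all lay in a run of 26 neighbouring regions at chr14:54620143-54844998, about 225 kb. This run was picked after its values were seen, as the longest in the window in which each region was found in a larger share of WT than of mutated libraries, or was shared and ranked lower in all 4 mutated libraries. Peaks fell in 6 and 8 of the 26 regions in CBE_1, in 8 and 9 in CBE_2, and in 23 and 23 in WT. All 10 WT-only regions of the window were in it, with WT folds between 2.81 and 7.57, a fold being the authors' value for a peak over its background.

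The strongest of them was chr14:54757931-54758873 in the delta part, with folds of 7.57 and 7.36 in WT and no peak in the mutated libraries. At chr14:54730524-54731561, also in the delta part, the deposited fold was 2.61 in CBE_1 replicate 2 with no peak in CBE_1 replicate 1, 5.27 and 4.62 in CBE_2, and 13.2 and 12.96 in WT. That region counts under no single pattern and was picked after its values were seen, and its 3 mutated values lie below both WT values. The WT-only regions of J alpha were weaker, with folds between 2.92 and 4.83 in WT. They lie at chr14:54788139-54788714, chr14:54795168-54795561, chr14:54800730-54801396 and chr14:54802579-54803037. Other WT-only regions of the delta part were chr14:54723816-54724219, chr14:54732936-54733294, chr14:54741332-54742101 and chr14:54771047-54771428, and the last one in the window, chr14:54681170-54681951, lay in the V part just before them.

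As densities, the delta part had 3 and 4 peaks in CBE_1, 4 and 4 in CBE_2, and 11 and 11 in WT. Relative to the rest of the chromosome this was 1.54 ± 0.288 (SD, n = 4) in the mutated libraries and 3.42 ± 0.180 (SD, n = 2) in WT. The J alpha part had 0 peaks in each of the 4 mutated libraries and 4 and 4 in WT, where its ratio was 1.93 ± 0.101 (SD, n = 2). In both parts every mutated library was below both WT libraries (two-sided exact permutation test, p = 0.133 each, the smallest possible). A peak list shows only that no signal passed the authors' threshold in the mutated libraries there, not that the chromatin was closed.

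**Figure D2:**
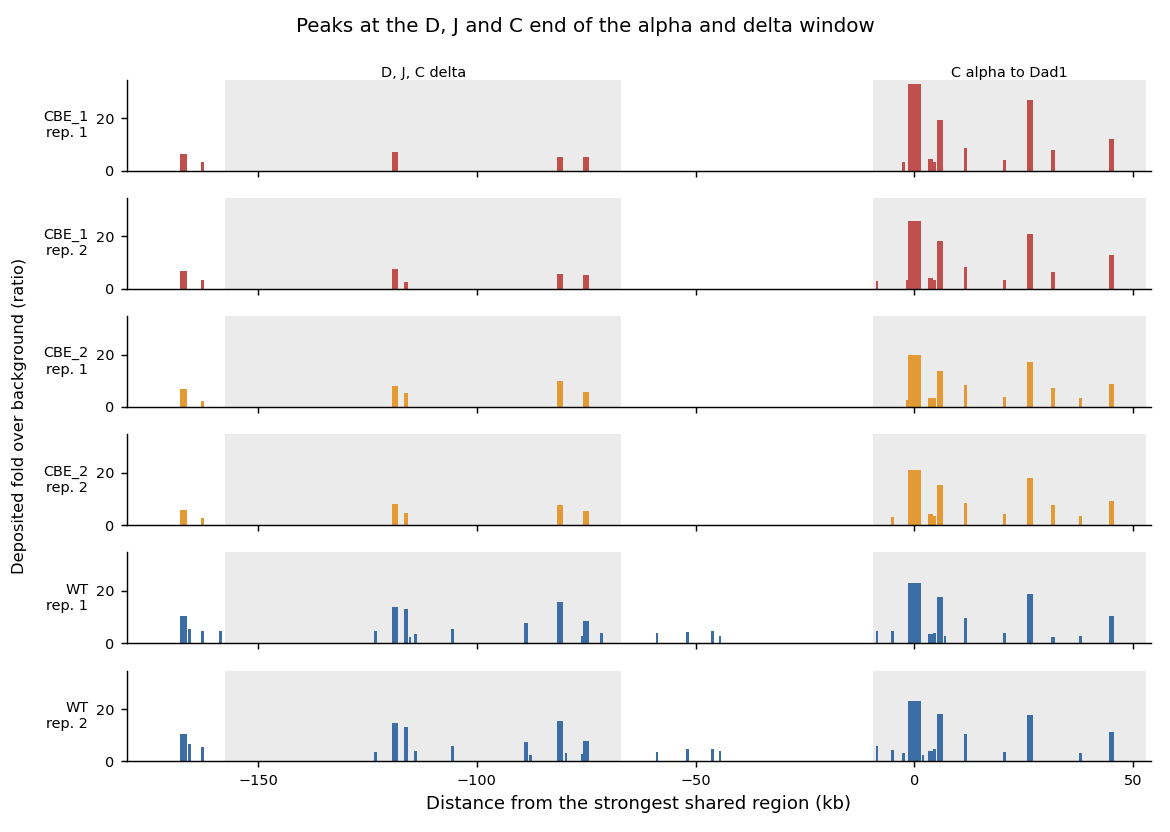
Deposited fold over background (vertical axis, ratio) of the peaks at the D, J and C end of the alpha and delta window, by library from CBE_1 at the top to WT at the bottom, against the distance from the strongest shared region in kb. Shaded bands are the approximate delta D, J and C part and the part from the alpha constant gene to Dad1, with J alpha between them. The mutated libraries hold 3 or 4 peaks in the delta band and none in J alpha, the WT libraries 11 and 4, while the right-hand band holds 11 to 13 peaks in all 6. Peaks of a library in the same merged region are drawn as a single bar, so bars can be fewer than peaks.

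The part from the alpha constant gene to Dad1 was the densest of alpha and delta in all lines, with 11 and 11 peaks in CBE_1, 11 and 13 in CBE_2, and 13 and 13 in WT. Relative to the rest of chromosome 14 this was 8.18 ± 0.869 in CBE_1, 5.68 ± 0.518 in CBE_2 and 5.88 ± 0.308 in WT (SD, n = 2 each). The strongest shared region of the window lay here, at chr14:54845715-54848778, with folds of 33.0 and 25.9 in CBE_1, 19.7 and 21.0 in CBE_2, and 23.0 and 23.2 in WT. Among the 47767 regions shared by all 6 libraries, it stood at or above the 90.5th percentile in each. Next to it in strength was chr14:54873089-54874310, with 27.1 and 21.1 in CBE_1, 17.3 and 17.9 in CBE_2, and 18.9 and 17.6 in WT. Both CBE_1 libraries had the highest folds at each, and CBE_2 and WT overlap at the second but not at the first. The scale of folds differs between lists, whose highest was 58.1 and 39.9 in CBE_1, and 38.6 and 38.9 in WT. As a percentile of the whole list, CBE_1 and WT overlap at both regions. The first stood at 98.67 and 99.27 in CBE_1, and 98.69 and 98.50 in WT. The second stood at 95.109 and 95.593 in CBE_1, and 95.112 and 92.755 in WT. Among shared regions, both CBE_1 libraries ranked each highest.

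Another region of this part, chr14:54878592-54879316, went the other way. Its fold was 7.99 and 6.36 in CBE_1, 7.11 and 7.73 in CBE_2, and 2.27 in WT replicate 1, with no peak in WT replicate 2. All 4 mutated values lay above the WT value. It was named after its values were seen, since it falls under no pattern.

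The V part of alpha and delta, by contrast, was open at scattered places in every line. In the mutated libraries, the shared region chr14:54178858-54180801 was stronger than the second region given here, and in WT the second was stronger. The first had folds of 18.9 and 14.3 in CBE_1, 15.3 and 14.3 in CBE_2, and 15.4 and 15.2 in WT. The second, chr14:53070072-53071319, had 15.7 and 13.7 in CBE_1, 14.96 and 13.96 in CBE_2, and 15.5 and 16.1 in WT. At both, the folds of the mutated and WT libraries overlap. Between 53242306 and 53692199, 450 kb, no region was shared by all 6 libraries, and the 7 regions there were weak, with a highest fold of 4.90. In this gap, peaks fell in 0 and 2 of those regions in CBE_1, in 6 and 4 in CBE_2, and in 5 and 3 in WT. Both CBE_1 libraries alone lacked a peak at 3 V regions and at chr14:54884969-54885271 near Dad1, where the folds in the other lines were between 2.92 and 3.65. The 2 CBE_2-only regions, chr14:54150267-54150508 and chr14:54166231-54166601, were also in the V part, with folds between 2.68 and 5.05. CBE_1-absent regions made up 4.44% of the window and CBE_2-only regions 2.22%, against 6.22% and 4.28% of the rest of chromosome 14. The 4 CBE_1-absent regions of the window came to 12 without CBE_1 replicate 2, and the 2 CBE_2-only regions to 4 without either CBE_2 library.

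In gamma, both mutated lines had fewer peaks than WT, in lists that are shorter as a whole, and lacked every peak of 1 stretch. Relative to the rest of chromosome 13, CBE_1 lay on both sides of WT. WT-only regions were 15 of 54 (27.8%), against 10.4% of the rest of chromosome 13. All 6 libraries shared 21 regions (38.9%), against 30.6% there. CBE_1 had a peak in both libraries at 26 of the 54 regions, CBE_2 at 24 and WT at 45. Over 43.4 kb between the shared regions that end at 19403759 and begin at 19447190, no mutated library had a peak, while WT had 8 and 9. These peaks made up 9 regions at chr13:19428186-19446846, about 18.7 kb, of which 7 were WT-only and 2 had a peak in 1 WT library.

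The strongest region of that stretch was chr13:19433089-19434172, with folds of 9.95 and 9.67 in WT. It was followed by chr13:19437337-19438375, with 6.17 and 4.61 in WT, and the other WT-only regions there had folds between 2.42 and 4.54. Stretches of 1 or more neighbouring regions with peaks in WT libraries alone are common in these lists, 22513 in all. Of these, 7032 had 2 or more regions and 104 had 9 or more, and the longest had 33. Of the other 8 WT-only regions of gamma, the strongest was chr13:19347202-19347952, with 5.73 and 4.72 in WT. The mutated-only regions of gamma were chr13:19276659-19277126, with 3.32 and 3.02 in CBE_1 and 3.80 and 4.40 in CBE_2, and chr13:19277260-19277624, with 3.02 and 2.71 in CBE_1 and 3.68 and 3.11 in CBE_2. They are direct neighbours. The CBE_2-absent region was chr13:19377024-19377779, with 2.56 and 3.02 in CBE_1 and 4.87 and 4.94 in WT. Such regions numbered 5 without CBE_1 replicate 1, 2 without either CBE_2 library, 4 with lists of the same length and 0 with the better 50% of each list.

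Just beyond the stretch without mutated peaks lay the strongest region of gamma, chr13:19447190-19451240, which spans about 4 kb. Its fold was 27.7 and 21.6 in CBE_1, 15.6 and 15.2 in CBE_2, and 20.02 and 22.1 in WT. Both CBE_2 values lie below those of the other lines. As a percentile among shared regions it stood at 93.3 and 93.6 in CBE_1, 79.2 and 80.9 in CBE_2, and 91.4 and 95.1 in WT.

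**Figure D3:**
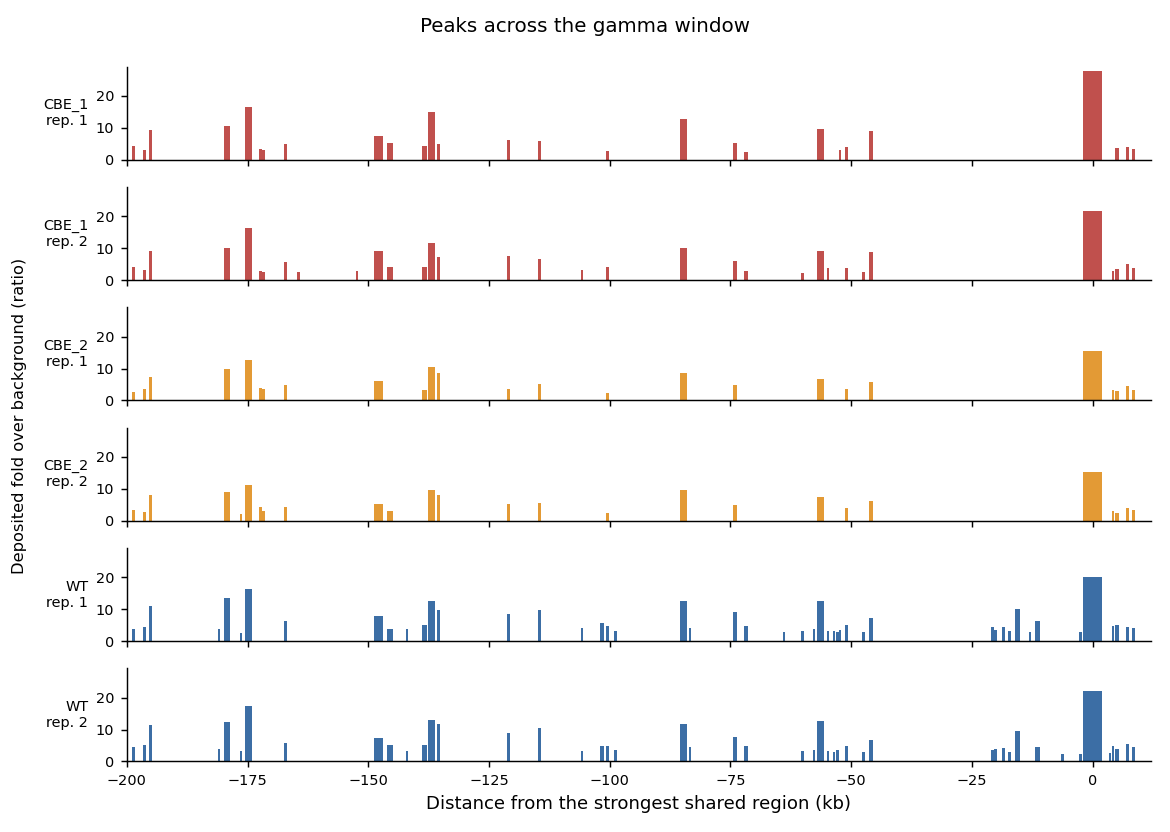
Deposited fold over background (vertical axis, ratio) of the peaks across the gamma window, by library from CBE_1 at the top to WT at the bottom, against the distance from the strongest shared region in kb. Left of that region, each WT library has peaks in a group of 8 regions, with a highest fold of 9.95, where the 4 mutated libraries have none. Peaks of a library in the same merged region are drawn as a single bar.

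In beta, the approximate part with V segments and trypsinogen genes held shared peaks in all 3 lines, and the window had few WT-only regions. Of the 65 regions of the window, 28 (43.1%) were shared by all 6 libraries and 3 (4.62%) were WT-only. Chromosome 6 outside the window had 30.6% and 7.26%. Mutated-only was 1 region (1.54%), CBE_2-only were 4 (6.15%) and CBE_1-absent were 2 (3.08%). The shares outside the window were 1.84%, 3.41% and 5.88%. Both libraries had a peak at 32 regions in CBE_1, at 44 in CBE_2 and at 37 in WT. In the part with V segments and trypsinogen genes, from 40.8 to 41.48 Mb, the relative density was 2.08 ± 0.227 in CBE_1, 1.95 ± 0.185 in CBE_2 and 1.49 ± 0.0110 in WT (SD, n = 2 each), and all 4 mutated libraries were above both WT libraries (exact permutation test over libraries, two-sided, p = 0.133). In the part with the D, J and C segments and the beta enhancer, up to 41.52 Mb, it was 4.13 ± 0.258 in CBE_1, 2.97 ± 0.411 in CBE_2 and 4.08 ± 0.628 in WT (SD, n = 2 each), so that CBE_1 and WT overlap.

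The strongest beta region lay in that second part, at chr6:41503191-41505669, with folds of 24.4 and 20.8 in CBE_1, 23.5 and 21.8 in CBE_2, and 24.02 and 24.8 in WT. Next to it, chr6:41507219-41509887 had 12.7 and 11.3 in CBE_1, 14.35 and 13.85 in CBE_2, and 18.0 and 18.1 in WT, with both WT values above all mutated ones. At the far end of the V part, chr6:40840401-40842365 had 14.9 and 15.1 in CBE_1, 12.8 and 13.7 in CBE_2, and 19.9 and 19.0 in WT, again highest in WT. The V region chr6:41062812-41063956 was highest in CBE_2, with 6.94 and 7.61 in CBE_1, 15.2 and 14.2 in CBE_2, and 9.41 and 8.02 in WT.

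The longest gap between shared regions of beta was 254 kb, from 41213875 to 41468062. It held 6 regions, with peaks in 1 and 2 of them in CBE_1, in 3 and 6 in CBE_2, and in 2 and 0 in WT. Its strongest region, chr6:41450535-41451352, had folds of 4.37 and 3.23 in CBE_1, 7.23 and 8.27 in CBE_2, and 3.14 in WT replicate 1, with no peak in WT replicate 2. That region falls under no pattern and was named after its values were seen. The mutated-only region was chr6:41167891-41169007, with 4.52 and 4.07 in CBE_1, and 3.80 and 4.83 in CBE_2. Beta's WT-only regions were chr6:40837913-40838643 in the V part and chr6:41491496-41492074 and chr6:41499476-41499934 in the D, J and C part, with folds between 2.75 and 4.98 in WT. The 4 CBE_2-only regions, all in the V part, had folds between 2.57 and 4.40. They came to 9 without CBE_2 replicate 1 and to 7 without CBE_1 replicate 2, and the 2 CBE_1-absent regions to 4 without CBE_1 replicate 2. With a library left out, a pattern sets a condition on fewer libraries, so such counts can rise by definition.

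**Figure D4:**
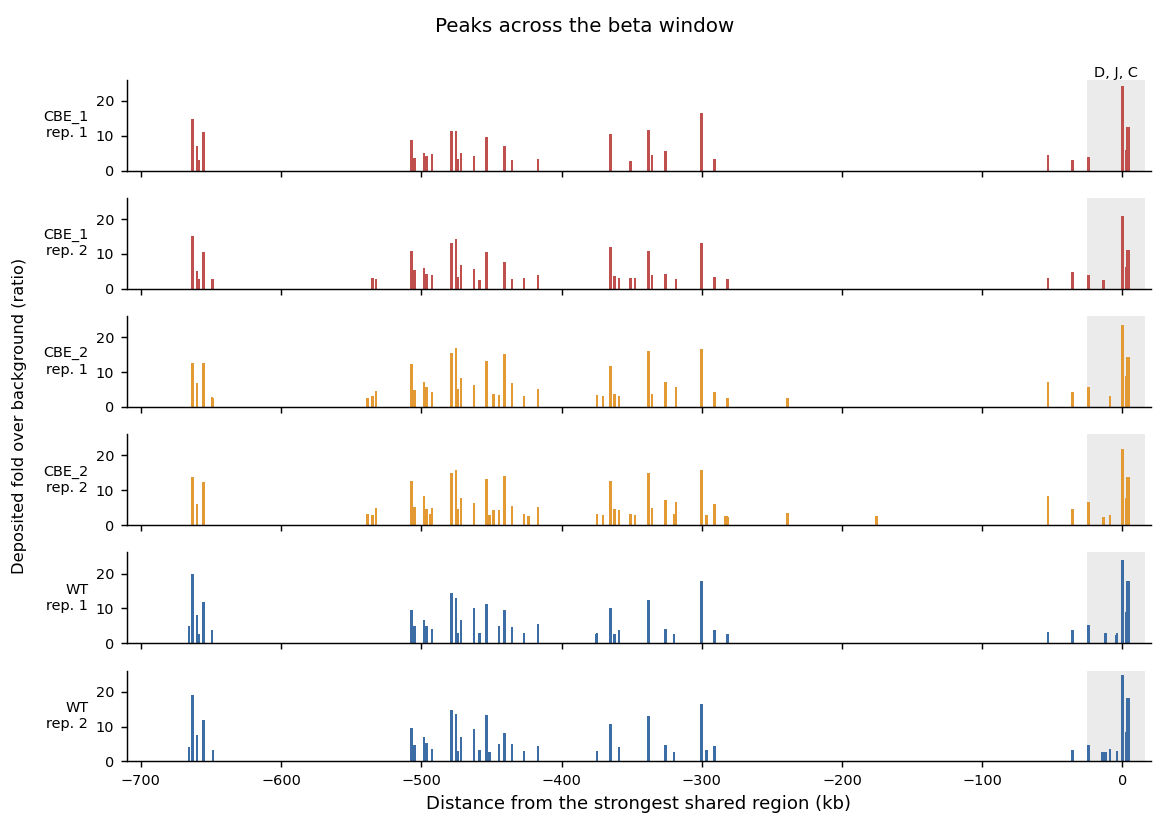
Deposited fold over background (vertical axis, ratio) of the peaks across the beta window, by library from CBE_1 at the top to WT at the bottom, against the distance from the strongest shared region in kb. The shaded band is the approximate D, J and C part. All 6 libraries share the same tall peaks in the part with V segments and trypsinogen genes, and the strongest peak at 0. Few peaks lie in the long gap to the left of that peak.

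Lists of the same length were used to see how far list length bears on these counts. They held the 72318 peaks of each library with the highest −log10 q-value, with ties ordered by fold. With them, the WT-only regions numbered 9 of 80 in alpha and delta (11.2%), 1 of 53 in beta (1.89%) and 10 of 44 in gamma (22.7%), against 6.17% of all regions. In the rest of the chromosomes they made up 6.38% on chromosome 14, 5.58% on chromosome 6 and 8.43% on chromosome 13. The difference in relative density, mutated minus WT, was then -2.52 in the delta part, -2.54 in J alpha, 0.507 in beta and -1.75 in gamma (two-sided exact permutation test, p = 0.133 each). Of the other 5 densities compared, the whole alpha and delta window is given above, the V part of beta had 0.540 (p = 0.133), the part from the alpha constant gene to Dad1 0.908 (p = 0.4) and the D, J and C part of beta -0.0610 (p = 0.667), by the same exact test. The V part of alpha and delta reversed, to -0.0472 with the same lengths (exact permutation test, p = 0.533), against 0.0785 with the full lists (p = 0.133). The direction was thus the same with and without equal lengths in 8 of the 9 densities.

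Regions present in all 6 libraries allow the same regions to be ranked in every library, though a region enters only when its peak passed the authors' threshold in all 6 lists. With the better 50% of each list, the shared regions of alpha and delta fell to 21, against 37 with the full lists, and those above WT to 0, against 4. Within each library, the fold of the 47767 shared regions was turned into a percentile, and a region was counted as above or below WT when all 4 mutated libraries ranked it higher or lower than both WT libraries. Of the 86 shared receptor regions, 10 (11.6%) were above WT and 18 (20.9%) below, against 20.3% above and 20.1% below over all shared regions. The share below is near the background, and the share above is under it. By window, 4 of 37 were above and 8 below in alpha and delta, 6 of 28 were above and 4 below in beta, and 0 of 21 were above and 6 below in gamma. In the rest of chromosome 13, 14.3% were above and 22.4% below. The rest of chromosome 14 had 19.5% above and 19.7% below, and the rest of chromosome 6 had 22.3% above and 17.2% below.

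In alpha and delta, 5 of the 8 regions below WT lay in the run of neighbours described above, as its definition required of any shared region in it. At chr14:54765554-54767022 in the delta part the percentile was 39.5 and 41.6 in CBE_1, 60.2 and 50.6 in CBE_2, and 78.9 and 77.4 in WT, and the mean difference between mutated and WT libraries was -30.2 points. At chr14:54727904-54729216 it was 52.6 and 55.2 in CBE_1, 49.5 and 51.9 in CBE_2, and 72.2 and 75.2 in WT. The remaining shared region of the delta part, chr14:54771599-54772958, had 39.5 and 36.2 in CBE_1, 31.4 and 29.5 in CBE_2, and 50.9 and 47.3 in WT. So all 3 shared regions there ranked lower in the mutated libraries, and the groups did not overlap.

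The neighbouring V regions chr14:54679406-54681110 and chr14:54684176-54684863 were also below WT, with mean differences of -16.8 and -19.6 percentile points, and those that began at 53070072, 53186306 and 54414244 had differences between -9.12 and -2.38 points. The 4 regions above WT were chr14:54164432-54164859, by 24.03 points, and those that began at 53754353, 54257329 and 54867574. At chr14:54164432-54164859 the percentile was 41.1 and 31.0 in CBE_1, 37.3 and 35.4 in CBE_2, and 8.55 and 15.8 in WT. In the part from the alpha constant gene to Dad1, 1 of 8 shared regions was above WT and 0 were below.

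In gamma, the counts of the lines lay far apart. CBE_2 ranked 19 of the 21 shared regions below both WT libraries in both of its own and 0 above, with a median difference of -13.2 percentile points. Over all shared regions, CBE_2 ranked 33.2% below both WT libraries and 33.2% above. In the rest of chromosome 13, CBE_2 ranked 47.5% below and 25.1% above, with a median of -2.79 points. CBE_1 ranked 6 of the 21 below and 5 above, with a median of -1.22 points, against 33.6% below and 36.9% above over all shared regions. In the rest of chromosome 13, CBE_1 had 34.6% below and 36.3% above, with a median of 0.467 points. The comparisons share the WT libraries. Of the 6 regions below WT in both lines, chr13:19334378-19334925 had the largest mean difference, -20.2 points, with a percentile of 45.1 and 49.3 in CBE_1, 24.8 and 31.9 in CBE_2, and 56.8 and 59.2 in WT. The others began at 19252642, 19269410, 19313453, 19374654 and 19392088, with differences between -16.7 and -6.91 points.

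In beta, CBE_2 ranked 18 of the 28 shared regions above both WT libraries and 5 below, with a median of 7.42 points, and CBE_1 ranked 7 above and 8 below, with a median of 0.339 points. Over all shared regions, 33.2% lay above and 33.2% below for CBE_2, and 36.9% above and 33.6% below for CBE_1. In the rest of chromosome 6, CBE_2 ranked 38.4% above both WT libraries and 26.3% below, with a median of 0.967 points, and CBE_1 34.8% above and 34.6% below, with a median of 0.0712 points. In alpha and delta, CBE_2 ranked 11 of the 37 above and 16 below, and CBE_1 10 above and 9 below. The rest of chromosome 14 had 38.4% above and 28.1% below for CBE_2, and for CBE_1 528 and 670 of its 1718 shared regions were above and below. The beta regions above WT in all 4 mutated libraries were all in its V part. The largest difference among them was at chr6:41177843-41178444, with a percentile of 42.5 and 23.3 in CBE_1, 44.5 and 45.5 in CBE_2, and 11.99 and 19.5 in WT, a mean difference of 23.3 points. The others began at 40848285, 40996514, 41011108, 41029672 and 41138450, higher by 3.38 to 15.3 points. Of the beta regions below WT, chr6:41041163-41042289 had the largest difference, with 25.8 and 42.6 in CBE_1, 37.3 and 38.4 in CBE_2, and 58.2 and 54.9 in WT. The difference was -4.46 points at the strongest region of beta, which begins at 41503191 (-2.62 points without CBE_1 replicate 1 and -7.20 with the better 50% of each list), and -13.1 points at its neighbour at 41507219.

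**Figure D5:**
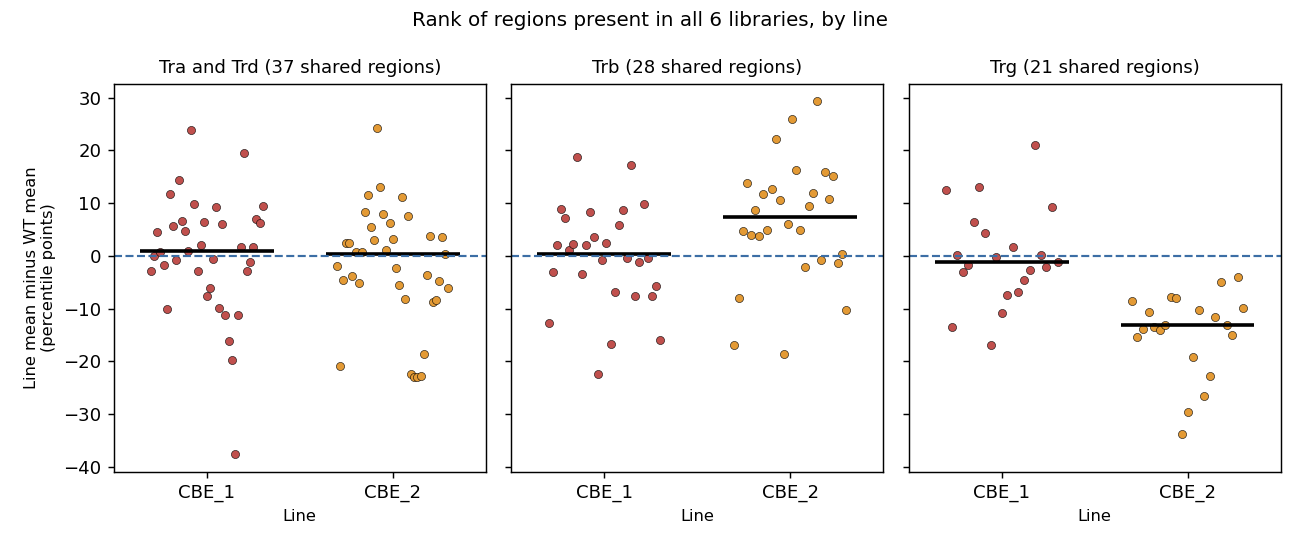
Difference in percentile among shared regions, line mean minus WT mean (vertical axis, points), for each region present in all 6 libraries of the alpha and delta, beta and gamma windows, by line in order of position, with the median as a black bar. Both lines are compared with the same WT libraries (dashed line at 0). The median of CBE_2 is 7.42 points in beta and -13.2 points in gamma, while the medians of CBE_1 lie between -1.22 and 0.929.

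No region order within a window was tested, and regions of a locus are not independent of one another. The immunoglobulin windows, set against the same 47767 shared regions, had 72 of 169 regions above WT and 7 below in IgH, and 50 of 131 above and 5 below in Igk. Beta had 6 of 28 above (21.4%) and 4 below (14.3%), near the rest of chromosome 6, with 22.3% above and 17.2% below. Alpha and delta and gamma had fewer regions above than below. These differences between loci were not tested.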

How the data were processed

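ATAC-seq libraries of 200000 cells each were amplified with 11 PCR cycles and sequenced as single reads, per the labels' protocols. Trimmomatic, Bowtie2, SAMtools, Picard and build mm9 are named without versions in the submitters' processing notes. For the peak caller, its settings and a transposase shift of reads, nothing is given in the sources used here. Each library has 1 deposited peak list. The authors deposited for each peak a score, a fold (a ratio over background), a −log10 p-value and a −log10 q-value, which served here for ranking or filtering inside 1 list and for description. In each list the score is 10 times the −log10 q-value, cut to a whole number. Depth is unknown.

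Libraries were grouped by title and genotype, and duplicates numbered in accession order. Peaks were merged at 1 bp of overlap with Python 3.11.15, pandas 2.3.3 and NumPy 2.4.6. Relative densities were compared by two-sided exact permutation tests over libraries (SciPy 1.17.1), and presence and rank counts were set beside the whole series with no test. Merging and counting were checked on simulated lists. Named are the shared and the line-specific regions, at most 10 a pattern and window, many of them by count or range, and regions outside these patterns are marked as chosen after their values were seen. Windows, subwindows and lists were chosen with earlier results of these data known. Alternatives were the better 50% of each list by q-value, lists of the same length, 1 Mb flanks as reference, summits or covered bases for peaks, 100 bp of overlap, 200 bp gaps merged, q-value ranks, an alpha and delta window without its last part, and each library left out. Gene names come from a GRCm38.p6 table whose coordinates were not used for peaks.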

Additional observations from a re-analysis of the deposited data

Results flagged for a closer look

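Of 95 results examined, 9 relative densities and 86 shared regions, 10 had the CBE_1 pair above and the CBE_2 pair below the WT pair, or the reverse, with no overlap. All 10 were percentiles of shared regions. Over all shared regions of the series, 9.83% did so, and the difference between the lines was not tested for any of them. The values below are the CBE_1 minus WT difference less the CBE_2 minus WT difference, in percentile points, named by the start of the region.

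In gamma, 4 regions ranked higher in CBE_1 and lower in CBE_2 than in WT, by 20.96 points at 19250373, 20.44 at 19281837, 26.25 at 19300369 and 12.02 at 19311498. In alpha and delta, CBE_1 was above and CBE_2 below WT by 9.224 points at 53108324, by 5.211 at 54845715, the strongest region of the window, and by 15.62 at 54891799, while at 53185236 the order was turned round, with -4.209 points. In beta, CBE_1 was below and CBE_2 above WT at 41025147, with -8.303 points, and at 41068136, with -32.82 points. At 41068136 the percentile was 6.39 and 2.51 in CBE_1, 42.6 and 31.9 in CBE_2, and 19.1 and 23.1 in WT.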

How the results depend on the processing

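No paired analysis was possible because the labels give the libraries no replicate numbers. Of the differences in relative density, that of the V part of alpha and delta, 0.0785, turned to -0.0666 with the better 50% of each list, to -0.0472 with lists of equal length and to -0.0117 with bases covered, and that of the D, J and C part of beta, -0.532, turned to 1.02 with the better 50%. The cause was not tested. With the better 50% of each list, shared regions numbered 21, 16 and 12 in alpha and delta, beta and gamma, mutated-only regions 1, 0 and 0, WT-only regions of beta 1, and regions above WT 0 in alpha and delta and 3 in beta. With lists of equal length, alpha and delta had 1 mutated-only region and beta had 3, with 1 WT-only region. With gaps of 200 bp merged, the mutated-only regions of gamma came to 1.

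With 1 library left out at a time, WT-only regions numbered 10 to 17 in alpha and delta and 3 to 6 in beta, both highest without WT replicate 2. Mutated-only regions numbered 0 to 1 in alpha and delta (1 without CBE_2 replicate 2 or WT replicate 1) and 1 to 4 in beta (4 without CBE_1 replicate 1, and 2 without CBE_2 replicate 1 or WT replicate 1). Regions above WT numbered 4 to 8 in alpha and delta (8 without CBE_1 replicate 2 or WT replicate 2, and 7 without CBE_1 replicate 1, CBE_2 replicate 1 or WT replicate 1) and 6 to 13 in beta (13 without CBE_1 replicate 1). Regions below WT numbered 8 to 13 in alpha and delta (13 without CBE_1 replicate 1) and 6 to 10 in gamma (10 without CBE_1 replicate 2 or WT replicate 1). Line patterns moved as well: over the windows, CBE_1-only regions, of which there were 0, numbered 1 in alpha and delta and 2 in gamma without CBE_1 replicate 1, and those present in CBE_2 alone or absent from 1 line are given with their windows. The rank difference moved by over 1.5 times at 19313453 (-6.83) and 41029672 (23.3) without CBE_1 replicate 1, at 53754353 (5.82) without WT replicate 1 and at 53070072 (-1.50) without WT replicate 2. For the 28 shared regions above or below WT, 294 values were recomputed, of which 0 changed sign. These regions were chosen because all 4 mutated libraries lay on 1 side of both WT libraries, so a change of sign was unlikely beforehand. A region no longer shared under a setting gave no value there. This was so with the better 50% of each list for those that began at 54164432 in alpha and delta and 41177843 in beta. Depth is unknown, and absence of a peak is absence above the authors' threshold.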
